A study of Homo sapiens with 12 samples.

Results

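The enzymes that make serine from glucose and pass its carbon to folate were followed as 9 genes, chosen by a rule on gene symbol and known function. The rule uses no measured value, but the choice was made with earlier results of these data known. The genes were PHGDH, PSAT1, PSPH, SHMT1, SHMT2, MTHFD1, MTHFD2, MTHFD1L and ALDH1L2, and each matched 1 row of a table of 58216 genes. Their transcripts were measured by RNA sequencing of total RNA in 4 groups of 3 libraries, given by the labels as biological replicates. The groups were HCCC9810 cells with 5 µM anlotinib for 24 h, HCCC9810 control cells, RBE cells with 5 µM anlotinib for 24 h, and RBE control cells. Both are established human cell lines from cancer that arose in bile ducts inside the liver (intrahepatic cholangiocarcinoma), and anlotinib is an inhibitor of receptor tyrosine kinases such as the VEGF, FGF and PDGF receptors. The drug was dissolved in dimethyl sulfoxide (final 0.1%), and the labels do not say whether control cultures received this solvent. All groups were grown in medium with fetal bovine serum. Of the 9 genes, 8 passed the expression filter that left 18035 genes for testing, and MTHFD2 passed it only through its level in HCCC9810.

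Serine is built from a glycolytic intermediate by phosphoglycerate dehydrogenase (PHGDH), phosphoserine aminotransferase (PSAT1) and phosphoserine phosphatase (PSPH), which act in that order. Serine hydroxymethyltransferases then split serine into glycine and a carbon unit carried by tetrahydrofolate, in the cytosol (SHMT1) or in mitochondria (SHMT2). In mitochondria MTHFD2 oxidises that unit, and then MTHFD1L releases it as formate or ALDH1L2 oxidises it to carbon dioxide. In the cytosol the multifunctional enzyme MTHFD1 takes formate up again for purine and thymidylate synthesis. Several of these genes are known targets of the transcription factor ATF4, which is translated under amino acid shortage and other stress.

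Library totals ran from 15215193 to 17722970 counts in HCCC9810 anlotinib, 16240478 to 22567927 in HCCC9810 control, 18227987 to 40963529 in RBE anlotinib and 17779598 to 31956474 in RBE control. The column headers name line and treatment in words, and those words set the groups. The number in each of the 12 headers, however, stands in a sample title of the other treatment of the same line. Following the titles' numbers in place of the words would turn round the sign of each anlotinib effect given here. Libraries are named by header number: HCCC9810 anlotinib 10 to 12, HCCC9810 control 7 to 9, RBE anlotinib 4 to 6 and RBE control 1 to 3. Within groups, 1 axis held 65.5% of the variance of 8157 genes and ran with GC content (Spearman rho 0.786 across genes, which are not independent). The highest scores on it were 21.5 for library 6 (RBE anlotinib) and 19.2 for library 7 (HCCC9810 control), while the other 10 libraries scored between −13.2 and 13.5. Of 8 bile duct markers, 8 reached a mean of 1 CPM (counts scaled to TMM-adjusted library size) in RBE and 6 in HCCC9810, where CDH1 was near 0. The summed level of these markers was 7059 to 7864 CPM in HCCC9810 anlotinib, against 11526 to 16318 CPM in HCCC9810 control. It was 6296 to 8068 CPM in RBE anlotinib, against 5834 to 6569 CPM in RBE control. Summed hepatocyte markers had 122 to 141 CPM in HCCC9810 anlotinib against 89.4 to 94.5 in HCCC9810 control, and 99.9 to 122 CPM in RBE anlotinib against 133 to 185 in RBE control. In HCCC9810 only 1 of 7 hepatocyte markers reached a mean of 1 CPM with anlotinib and 2 in control, so the sum rests on few genes. The median log2 fold change of the 5 tested was −1.05 there (−0.05 over all tested genes), opposite to the sum. Summed fibroblast markers had 23.6 to 36.1 CPM in HCCC9810 anlotinib against 60.9 to 75.0 in HCCC9810 control, and 36.3 to 41.2 CPM in RBE anlotinib against 47.4 to 59.6 in RBE control. The hepatocyte and fibroblast ranges were apart by treatment in both lines. Endothelial markers summed to at most 36.2 CPM and were apart by treatment in RBE (7.96 to 8.51 CPM with anlotinib, 3.94 to 5.39 in control), and blood markers summed to at most 65.8 CPM. Their part in the results was not tested, and in bulk RNA fewer expressing cells and less RNA per cell cannot be told apart.

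A pair of enzymes stood at the top in each group when levels were compared per length, as deposited RPKM. RPKM scales counts to gene length and to library total. That length matches all annotated exons of a gene joined, such as 9217 bases for PHGDH and 2188 for PSAT1, not a single transcript. The order of enzymes given here depends on these lengths. In RBE control cells PHGDH had 223 ± 25 CPM and PSAT1 124 ± 12 CPM, opposite to their order by RPKM. In RBE anlotinib cells SHMT2 had 60.0 ± 8.9 RPKM and PSAT1 40.5 ± 0.90, and in RBE control cells SHMT2 had 80.1 ± 6.3 and PSAT1 58.8 ± 5.2 (SD, n = 3 each). In HCCC9810 anlotinib cells PSAT1 had 38.6 ± 4.1 RPKM and SHMT2 33.9 ± 2.2, with overlapping library ranges, and in HCCC9810 control cells PSAT1 had 42.4 ± 1.8 and SHMT2 27.5 ± 1.7, with ranges apart. The lines thus differed in which enzyme came first by RPKM. Below these, the order in RBE control cells was PHGDH at 25.1 ± 2.6 RPKM, PSPH at 23.6 ± 3.9, MTHFD1L at 15.0 ± 1.3, MTHFD1 at 12.4 ± 0.52 and SHMT1 at 10.6 ± 0.90. PHGDH and PSPH overlapped in that order, and the other neighbours did not. In HCCC9810 control cells the order went on with MTHFD2 at 25.1 ± 0.83 RPKM, PSPH at 21.6 ± 0.36, MTHFD1 at 12.9 ± 0.20, MTHFD1L at 9.65 ± 0.22, SHMT1 at 6.33 ± 0.33 and PHGDH at 3.22 ± 0.33, all with ranges apart. Under anlotinib MTHFD1L stood above MTHFD1 by RPKM in HCCC9810 (12.1 ± 0.96 against 9.27 ± 1.0), the order that RBE showed in both conditions. By CPM, which leaves length out, MTHFD1L stood below MTHFD1 in each group. In HCCC9810 anlotinib cells MTHFD1L had 66.0 ± 3.6 CPM and MTHFD1 94.6 ± 13 CPM. ALDH1L2 stayed below 0.1 RPKM in each of the 12 libraries.

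**Figure D1:**
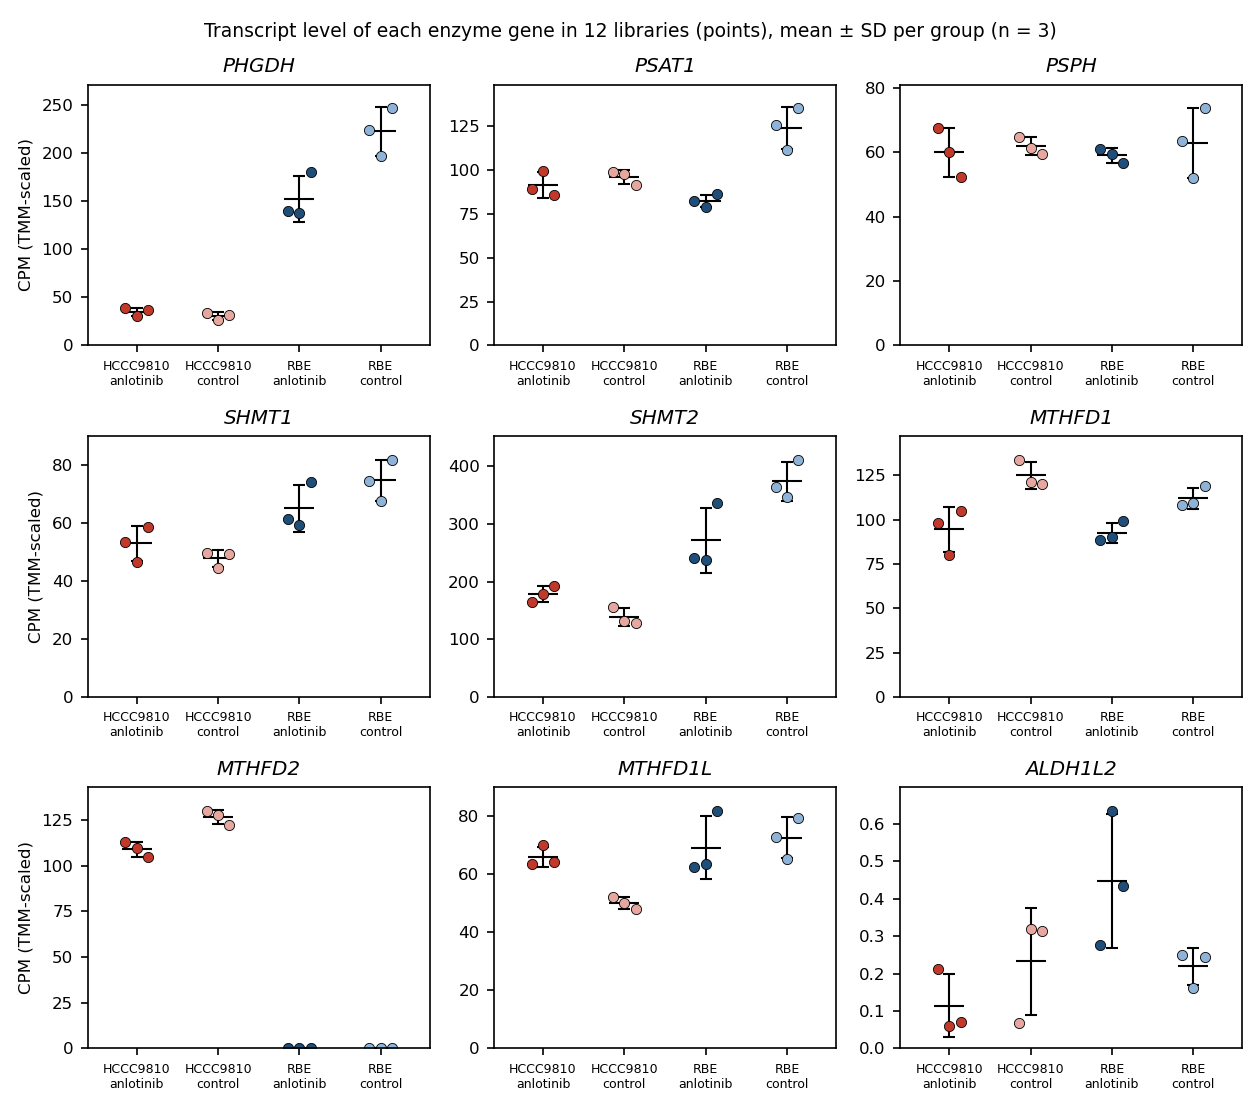
Level of each enzyme gene in CPM (y axis, from 0, own scale per panel) in the 4 groups (x axis). Points are the 12 libraries, and the bar and whiskers are mean and SD of 3 libraries. MTHFD2 lies near 0 in the 6 RBE libraries and between 104.6 and 129.8 CPM in the 6 HCCC9810 libraries, and PHGDH lies above 130 CPM only in RBE.

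Untreated RBE and HCCC9810 cells differed most, among these genes, in MTHFD2, the mitochondrial dehydrogenase and cyclohydrolase of the pathway. It had 2, 0 and 8 counts in RBE control libraries 1, 2 and 3, against 1932, 2406 and 2736 counts in HCCC9810 control libraries 7, 8 and 9. RBE therefore had 0.105 ± 0.126 CPM and HCCC9810 127 ± 3.8 CPM (SD, n = 3 each). Since MTHFD2 entered the test only through HCCC9810, no test of this difference is given. The fitted log2 difference was −9.92, and it was −9.47 to −11.31 with 1 library left out (the last without RBE control library 3) and −4.67 and −7.71 on the log2 scale of RPKM plus 1 and plus 0.1, so its size depends on 10 counts in RBE and on what is added to them. With anlotinib it had 4, 8 and 6 counts in RBE libraries 4, 5 and 6, so the near absence held in all 6 RBE libraries. ALDH1L2, a mitochondrial enzyme that oxidises formyl-tetrahydrofolate, was low in both lines, with 5 counts in HCCC9810 anlotinib, 14 in HCCC9810 control, 46 in RBE anlotinib and 18 in RBE control, each over 3 libraries.

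The genes around MTHFD2 were looked up after its values were seen. MTHFD2 lies on chromosome 2 (GRCh38, chr2:74198562-74217565, plus strand, GENCODE 29). The nearest expressed gene before it, MOB1A, lies 19664 bases away and had 172 ± 20 CPM in RBE control and 214 ± 48 CPM in HCCC9810 control. The nearest expressed gene after it, DCTN1, is 143589 bases away and had 194 ± 8.0 CPM in RBE control and 217 ± 11 CPM in HCCC9810 control. Both neighbours were thus expressed in RBE. On exons, 33.2% of MTHFD2 bases are shared with the minus-strand genes SLC4A5 and AC006030.1, whose group means were at most 0.594 CPM. MTHFD2L, a related mitochondrial enzyme, had 4.58 ± 0.77 CPM in RBE control and 3.92 ± 1.1 CPM in HCCC9810 control, a log2 difference of 0.20 ± 0.25 that was not called (edgeR adjusted p = 0.485). Of 14 pseudogenes of the 9 genes in the table, 13 had at most 14 counts per group. The exception, PSPHP1, had 516 counts in HCCC9810 anlotinib, 512 in HCCC9810 control, 1285 in RBE anlotinib and 1012 in RBE control, so PSPH values are uncertain where reads fit both.

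**Figure D2:**
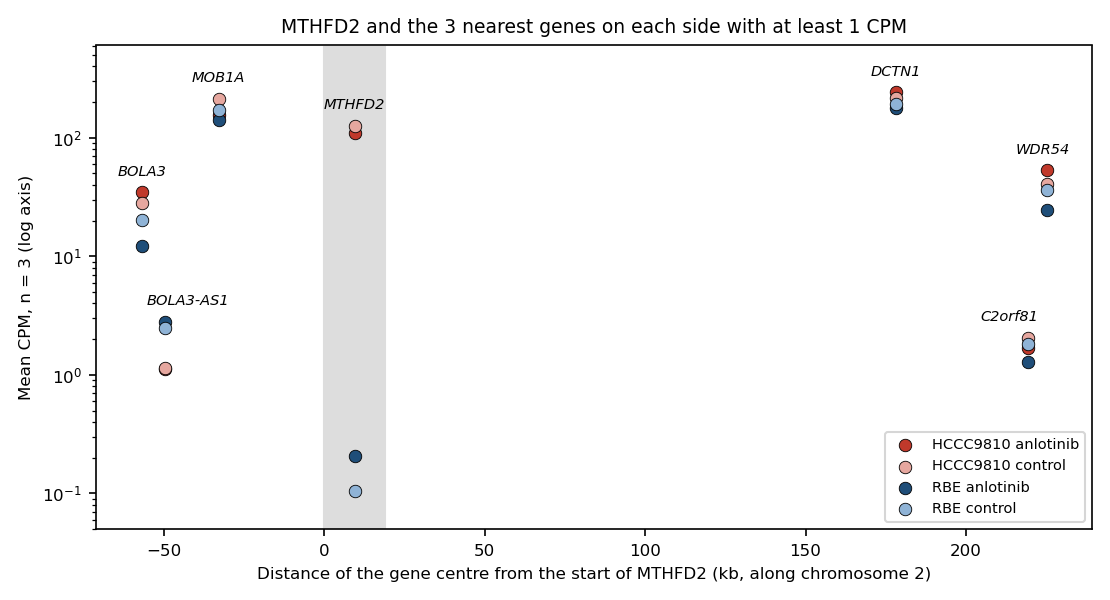
Mean CPM of 3 libraries per group (y axis, log scale) for MTHFD2 and the 3 nearest genes on each side with at least 1 CPM, by distance of the gene's centre from the MTHFD2 start (x axis, kb). The grey band is MTHFD2. In RBE the neighbours MOB1A and DCTN1 had 142 to 194 CPM while MTHFD2 was at or below 0.208 CPM.

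Of the other 7 tested enzymes, 5 were higher in untreated RBE than in untreated HCCC9810 cells and none was called lower, where 31.5% of all tested genes were called higher and 64.1% called in either direction (edgeR adjusted p under 0.05). The largest rise was in PHGDH, the first enzyme of serine synthesis. RBE control libraries had 225, 197 and 247 CPM, against 34, 26.3 and 32.0 CPM in HCCC9810 control libraries, a log2 difference of 2.86 ± 0.15 (7.26-fold, edgeR adjusted p = 2.65e-10). All RBE libraries lay far above all HCCC9810 libraries. SHMT2 averaged 374 ± 33 CPM in RBE control and 138 ± 15 CPM in HCCC9810 control (log2 difference 1.44 ± 0.14, edgeR adjusted p = 3.15e-07). The smaller differences were in SHMT1 (0.65 ± 0.12, edgeR adjusted p = 0.000281), MTHFD1L (0.53 ± 0.12, edgeR adjusted p = 0.00115) and PSAT1 (0.37 ± 0.10, edgeR adjusted p = 0.00498). PSPH at 0.03 ± 0.13 (95% interval −0.25 to 0.30) and MTHFD1 at −0.16 ± 0.11 (95% interval −0.39 to 0.08) were not called. Library ranges were apart in 6 of these 7 enzymes, against 69.1% of all tested genes.

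Promoter sequences are shown for MTHFD2, whose transcript was near 0 in RBE, for the first enzymes of serine synthesis, and for the formate-handling pair MTHFD1L and MTHFD1. They come from RefSeq (GRCh38.p14) and run from 250 bases before to 50 bases after a gene start, 5′ to 3′ on the plus strand. The table held windows for 6 of the 9 genes. MTHFD1L has 4, of which 3 overlap and hold the same matches, and 1 of these is shown. Each window was searched on both strands for TGATGNAA, the core of the element bound by ATF4 with a C/EBP partner, and CACGTG, the E-box that MYC and other factors bind, and matches are in capitals. The windows are chr2:74198365-74198664 (MTHFD2), chr1:119711684-119711983 (PHGDH), chr9:78296875-78297174 (PSAT1), chr6:150866236-150866535 (MTHFD1L) and chr14:64388103-64388402 (MTHFD1).
MTHFD2: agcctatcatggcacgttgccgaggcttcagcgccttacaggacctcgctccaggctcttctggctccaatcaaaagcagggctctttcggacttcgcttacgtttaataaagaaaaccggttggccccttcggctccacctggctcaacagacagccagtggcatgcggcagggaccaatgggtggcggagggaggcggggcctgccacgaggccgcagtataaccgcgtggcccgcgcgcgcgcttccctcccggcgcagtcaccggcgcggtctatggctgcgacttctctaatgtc
PHGDH: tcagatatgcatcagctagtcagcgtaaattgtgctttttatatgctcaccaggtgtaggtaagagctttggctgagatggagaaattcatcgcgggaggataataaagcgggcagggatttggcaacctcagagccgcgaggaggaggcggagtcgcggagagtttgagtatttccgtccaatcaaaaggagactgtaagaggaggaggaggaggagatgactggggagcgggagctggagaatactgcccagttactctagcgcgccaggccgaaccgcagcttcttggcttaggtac
PSAT1: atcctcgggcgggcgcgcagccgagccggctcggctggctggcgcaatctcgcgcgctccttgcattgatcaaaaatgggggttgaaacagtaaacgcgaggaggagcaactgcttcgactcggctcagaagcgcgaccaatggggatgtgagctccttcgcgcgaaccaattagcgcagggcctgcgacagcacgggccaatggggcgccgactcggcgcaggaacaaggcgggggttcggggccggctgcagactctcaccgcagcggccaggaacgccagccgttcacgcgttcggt
MTHFD1L: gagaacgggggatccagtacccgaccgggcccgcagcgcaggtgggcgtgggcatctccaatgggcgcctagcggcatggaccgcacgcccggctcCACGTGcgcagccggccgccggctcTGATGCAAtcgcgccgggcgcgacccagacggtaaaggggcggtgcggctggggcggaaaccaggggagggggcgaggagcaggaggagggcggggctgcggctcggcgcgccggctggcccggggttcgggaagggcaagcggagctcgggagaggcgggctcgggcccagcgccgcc
MTHFD1: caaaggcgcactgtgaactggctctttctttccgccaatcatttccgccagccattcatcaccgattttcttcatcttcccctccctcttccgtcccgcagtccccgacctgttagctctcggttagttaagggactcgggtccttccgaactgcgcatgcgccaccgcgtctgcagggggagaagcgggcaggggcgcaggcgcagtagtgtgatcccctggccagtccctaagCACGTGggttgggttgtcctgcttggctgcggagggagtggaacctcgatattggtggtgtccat
In MTHFD1L both motifs were found, CACGTG from base 97 and the other from base 122 of the window, without overlap. MTHFD1 held CACGTG from base 236. The letters of neither motif were in the windows shown for PHGDH, PSAT1 and MTHFD2, nor in that of SHMT1. Among 35116 promoter windows of 27305 genes, 3.62% held TGATGNAA and 7.26% held CACGTG. The MTHFD2 window held 27 CpG, and 28.2% of all windows held as many or more (median 14).

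In RBE the effect of anlotinib on these enzymes was downward where it passed the test. PHGDH, PSAT1 and SHMT2 fell, and the other 5 of 8 tested enzymes were not called. PSAT1, the aminotransferase that forms phosphoserine, had 82.3, 78.9 and 86.2 CPM in RBE anlotinib libraries 4, 5 and 6, against 126, 111 and 135 CPM in RBE control libraries 1, 2 and 3. The groups did not overlap, and the log2 fold change was −0.59 ± 0.10 (edgeR adjusted p = 0.000981). PHGDH had 139.9, 138 and 180.3 CPM in the anlotinib libraries and 225, 197 and 247 CPM in the control libraries. Its groups were also apart, with library 6 the highest of the treated, and it fell by 0.55 ± 0.14 on the log2 scale (edgeR adjusted p = 0.0128). SHMT2, the mitochondrial serine hydroxymethyltransferase, had 240.5, 238 and 337 CPM with anlotinib, against 364, 347 and 411 CPM in control. Library 6 lay close under the lowest control library, and the fall was 0.46 ± 0.14 on the log2 scale (edgeR adjusted p = 0.0303).

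The 3 calls of 8 stand against 17.7% of all tested genes called in RBE, with 9.37% called higher and 8.32% called lower. The median log2 fold change was −0.24 over the 8 tested enzymes and 0.02 over all tested genes. The third enzyme of the serine branch, PSPH, had 59.0 ± 2.3 CPM with anlotinib and 62.9 ± 11 CPM in control (log2 fold change −0.09 ± 0.13, edgeR adjusted p = 0.685). MTHFD1 had 88.7, 90.2 and 99.2 CPM with anlotinib and 108, 109 and 119 CPM in control, with groups apart, and missed the threshold (−0.28 ± 0.11, edgeR adjusted p = 0.0984). It passed without libraries 6 and 7 (0.0366) and with a correction for GC content and length (0.0104). SHMT1 at −0.20 ± 0.12 and MTHFD1L at −0.07 ± 0.12 were not called, nor was MTHFD2 (0.57 ± 0.57, 95% interval −0.66 to 1.79), which had 18 counts over 3 anlotinib and 10 over 3 control libraries. ALDH1L2 did not enter the test. Without the filter its log2 fold change was 1.02 ± 0.53 (edgeR adjusted p = 0.302). Library ranges were apart in 4 of 8 enzymes, against 35% of all tested genes. The PSAT1 call held when any 1 library was left out. The PHGDH call ended without RBE control library 1 or 3 or anlotinib library 4 or 5 (edgeR adjusted p = 0.0557, 0.0840, 0.0837 and 0.0850), and the SHMT2 call ended without those same libraries (0.0917, 0.174, 0.185 and 0.188), without HCCC9810 library 8, 9, 10 or 12 (0.0606, 0.0528, 0.0514 and 0.0532), or in a fit of RBE alone (0.0702). Without library 6 the SHMT2 fall was 0.64 and the PHGDH fall 0.68 on the log2 scale.

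In HCCC9810 MTHFD1 fell and MTHFD1L rose. MTHFD1, the cytosolic enzyme, had 98.2, 80.3 and 105.1 CPM in anlotinib libraries 10, 11 and 12, against 134, 121 and 120.1 CPM in control libraries 7, 8 and 9. The groups were apart, and it fell by 0.40 ± 0.11 on the log2 scale (edgeR adjusted p = 0.0170). MTHFD1L, the mitochondrial formyl-tetrahydrofolate synthetase that releases formate, had 63.7, 70.2 and 64.2 CPM with anlotinib, against 52.3, 50.02 and 48.1 CPM in control. These groups were apart as well, and it rose by 0.40 ± 0.12 (edgeR adjusted p = 0.0277). On exons, 11.04% of MTHFD1 bases are shared with other genes.

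These were 2 calls of 8, or 1 in each direction, where 23.9% of all tested genes were called in HCCC9810 (11.1% higher and 12.8% lower), so the share of enzymes called was close to the background. The median log2 fold change was 0.05 over the enzymes and −0.05 over all tested genes. SHMT2 had 164, 179 and 192 CPM with anlotinib and 156, 132 and 128 CPM in control, with groups apart, but missed the threshold (0.37 ± 0.14, edgeR adjusted p = 0.0681). It passed without library 6, without library 7, without both (edgeR adjusted p = 0.0243, 0.0375 and 0.00316), without the filter (0.0266) and in a fit of HCCC9810 alone (0.0350). MTHFD2 had 113, 109 and 105 CPM with anlotinib and 129.8, 128 and 122 CPM in control, with groups apart, and was not called (−0.22 ± 0.16, edgeR adjusted p = 0.341), though limma called it on log2 of RPKM plus 1 (−0.27, adjusted p = 0.0186). PHGDH at 0.19 ± 0.14, PSAT1 at −0.07 ± 0.10, PSPH at −0.05 ± 0.13 and SHMT1 at 0.15 ± 0.12 were not called. Library ranges were apart in 4 of 8 enzymes, against 38.3% of all tested genes. The MTHFD1 call ended without HCCC9810 library 7, 8, 10 or 11 (edgeR adjusted p = 0.0686, 0.0579, 0.0565 and 0.0711) or without the filter (0.0569). The MTHFD1L call, 0.45 without library 7, ended without HCCC9810 library 8, 9, 10, 11 or 12 (0.0962, 0.120, 0.0526, 0.0752 and 0.0660, edgeR adjusted p) or RBE control library 1 (0.0503).

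The response of PHGDH, PSAT1 and SHMT2 differed between lines by a test of the difference itself. The effect in RBE minus that in HCCC9810 was −0.83 ± 0.20 for SHMT2 (edgeR adjusted p = 0.0115), −0.74 ± 0.20 for PHGDH (edgeR adjusted p = 0.0235) and −0.52 ± 0.14 for PSAT1 (edgeR adjusted p = 0.0250). These 3 of 8 stand against 16.6% of all tested genes called for this difference, and 7.66% called in this direction. For the other enzymes the difference did not pass: MTHFD1L −0.47 ± 0.17 (95% interval −0.83 to −0.11, edgeR adjusted p = 0.0706), SHMT1 −0.35 ± 0.17 (−0.72 to 0.02), PSPH −0.05 ± 0.18 (−0.44 to 0.34), MTHFD1 0.13 ± 0.16 (−0.21 to 0.46) and MTHFD2 0.78 ± 0.59 (−0.49 to 2.05). The MTHFD2 value rests on 18 RBE anlotinib and 10 RBE control counts, and ran from 0.38 to 2.22 with 1 library left out. The median difference was −0.41 over the 8 enzymes and 0.09 over all tested genes. The SHMT2 difference passed in each alternative run, and without library 6 it was −1.02. The PHGDH difference ended its call without RBE library 1, 3, 4 or 5 (edgeR adjusted p = 0.0567, 0.0733, 0.0734 and 0.0772) or HCCC9810 library 8, 9, 10 or 12 (0.0785, 0.0526, 0.0628 and 0.0620). The PSAT1 difference ended its call without RBE library 1, 3, 4 or 5 (0.0760, 0.0919, 0.0820 and 0.0955, edgeR adjusted p) or HCCC9810 library 8, 9 or 10 (0.0724, 0.0974 and 0.0513), and with library totals (0.0569) or RPKM in limma (0.0574 and 0.0617 at pseudocounts of 1 and 0.1). The MTHFD1L difference passed without library 6 (−0.62, edgeR adjusted p = 0.0133), without libraries 6 and 7 (−0.66, 0.00395) and with the GC and length correction (−0.44, 0.0304). The SHMT1 difference passed without libraries 6 and 7 (−0.50, edgeR adjusted p = 0.0318) and with the correction (−0.37, 0.0445).

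**Figure D3:**
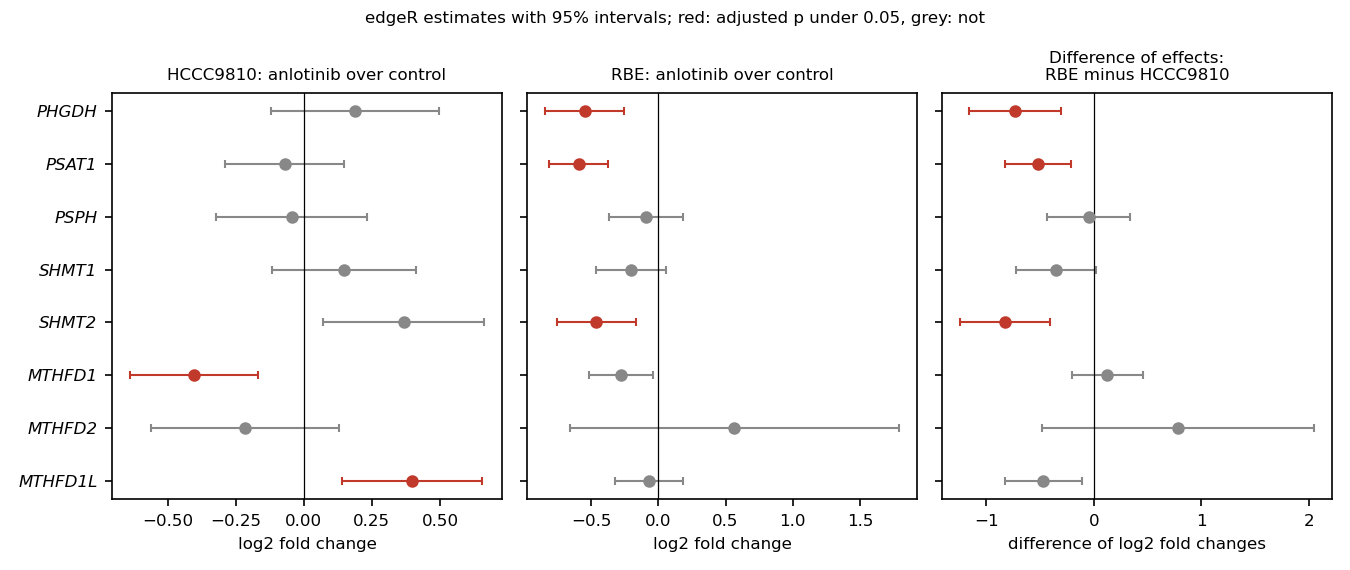
Log2 fold changes of 8 enzymes (x axis) with 95% intervals in HCCC9810, in RBE, and their difference (RBE minus HCCC9810), from edgeR over 12 libraries. Red marks an adjusted p under 0.05. PHGDH, PSAT1 and SHMT2 are red and below 0 in RBE and in the difference.

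Ratios of RPKM within a library were compared between groups, without a test. Their absolute size depends on the exon lengths used, so they describe only how the balance of paired enzymes differed between groups. MTHFD1L over MTHFD1 was 1.21, 1.63 and 1.14 in HCCC9810 anlotinib libraries 10, 11 and 12, against 0.730, 0.771 and 0.748 in control libraries 7, 8 and 9. The groups were apart. Where a ratio of 1 falls depends on the exon lengths, 5021 bases for MTHFD1L and 9377 for MTHFD1. In RBE the same ratio was 1.31 to 1.54 with anlotinib and 1.12 to 1.26 in control, and again the groups were apart. SHMT2 over SHMT1 was 5.90 to 6.83 in RBE anlotinib and 7.36 to 7.72 in RBE control. In HCCC9810 it was 4.61 to 5.79 with anlotinib and 3.90 to 4.71 in control, where the ranges overlapped. PHGDH over PSAT1 was 0.404 to 0.497 in RBE anlotinib and 0.420 to 0.433 in RBE control, and these ranges overlapped. In HCCC9810 this ratio was 0.0718 to 0.102 with anlotinib and 0.0636 to 0.0830 in control. The RPKM of the 3 serine synthesis genes summed to 80.3 to 82.7 in RBE anlotinib libraries and 94.9 to 118 in RBE control libraries, while in HCCC9810 it was 55.2 to 66.7 with anlotinib and 66.2 to 69.4 in control.

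Downstream of the folate pool, several genes of thymidylate and purine synthesis fell in RBE. Of 16 such genes, 7 fell and 1 rose in RBE, against 8.32% and 9.37% of all tested genes, with a median log2 fold change of −0.32 against 0.02 over all tested genes. The count that fell was 3 without RBE library 3, 4 or 5, 4 without RBE library 1 and 5 to 7 without any other. In HCCC9810, 3 fell and 1 rose, against 12.8% and 11.1% of all tested genes (median −0.10 against −0.05), and 1 fell without library 7, 8, 10 or 12, without the filter, or with the GC and length correction. TYMS, thymidylate synthase, fell by 0.63 ± 0.14 in RBE (edgeR adjusted p = 0.00667) and DUT, which makes dUMP, by 0.77 ± 0.16 (edgeR adjusted p = 0.00359). Exon overlap with other genes is 46.6% for TYMS and 14.5% for DUT. In HCCC9810, DUT fell by 0.75 ± 0.16 (edgeR adjusted p = 0.00446). TYMS and DUT kept their calls in RBE when any 1 library was left out.

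Of 19 tested other folate enzymes and carriers of a list of 20, 2 rose and 2 fell in RBE, and 2 rose and 1 fell in HCCC9810, where 17.7% of all tested genes were called in RBE and 23.9% in HCCC9810. The cytosolic relative of ALDH1L2, ALDH1L1, named here after its values were seen, is 1 of the 2 counted as rising in RBE. It had 80 counts over 3 RBE anlotinib libraries against 21 over 3 RBE control libraries, with group means under 1 CPM in both. It entered the test only through RBE anlotinib, so no test of this difference is given. In HCCC9810, MTFMT and FPGS rose by 0.59 ± 0.13 and 0.46 ± 0.13, and the methionine synthase MTR fell by 0.54 ± 0.13 (edgeR adjusted p = 0.00475, 0.0173 and 0.00875). The FPGS call ended without library 8, 9 or 12 (edgeR adjusted p = 0.0815, 0.0848 and 0.0887) and the MTR call without library 10 (0.0550). MTFMT formylates the mitochondrial initiator tRNA, and FPGS adds the glutamate tail that retains folates in cells. The 3 tested glycine cleavage genes were not called in either line by edgeR, and GLDC, the decarboxylase, was the one with an unadjusted p under 0.05, in RBE (−0.37 ± 0.16, edgeR adjusted p = 0.127). It was called lower in RBE without library 6, without libraries 6 and 7 and with the GC and length correction. Of 17 genes of serine transport and use, 3 rose and 4 fell in HCCC9810 (all tested genes 11.1% and 12.8%), and 1 fell in RBE (8.32%). In RBE 3 fell without library 6 and 5 with the GC and length correction. The gene called in RBE, SFXN2, a sideroflexin of mitochondria, fell in both lines, by 0.57 ± 0.14 in RBE and 0.79 ± 0.17 in HCCC9810 (edgeR adjusted p = 0.0107 and 0.00481). Its call in RBE ended without RBE library 3, 4 or 5 (edgeR adjusted p = 0.0624, 0.0643 and 0.0616).

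Several transcripts of the amino acid stress response rose in both lines. Of 25 genes in that list, 12 rose and 2 fell in HCCC9810 (median log2 fold change 0.32), against 11.1% and 12.8% of all tested genes (median −0.05). In RBE 10 rose and the other 15 were not called (median 0.40), against 9.37% of all tested genes called higher (median 0.02). The count in RBE was 6 without library 1, 7 to 10 without any other, and 13 with the GC and length correction. ATF4 averaged 237 ± 7.7 CPM in HCCC9810 anlotinib and 134 ± 7.6 CPM in HCCC9810 control (0.82 ± 0.11, edgeR adjusted p = 0.000108). In RBE it averaged 285 ± 39 CPM with anlotinib and 209.7 ± 8.3 CPM in control (0.44 ± 0.11, edgeR adjusted p = 0.00863). The RBE call ended without control library 1 (edgeR adjusted p = 0.0609), and the protein was not measured. TRIB3 and DDIT3, both stress-response regulators, rose in RBE by 2.12 ± 0.14 and 1.43 ± 0.20 (edgeR adjusted p = 1.31e-07 and 0.000189), and in HCCC9810 by 1.12 ± 0.13 and 1.58 ± 0.21 (edgeR adjusted p = 5.81e-05 and 0.000113). For DDIT3, 39.6% of exon bases are shared with other genes. SLC7A11, the cystine carrier, went opposite ways, up by 0.88 ± 0.27 in RBE and down by 0.97 ± 0.27 in HCCC9810 (edgeR adjusted p = 0.0412 and 0.0203). The call in HCCC9810 ended without library 8, 9, 10 or 12 (edgeR adjusted p = 0.0759, 0.0731, 0.0633 and 0.0770), and the difference between lines was 1.85 ± 0.38 (edgeR adjusted p = 0.00737), which kept its call in each alternative run. The call in RBE ended without RBE library 1, 2, 3, 4 or 5 (edgeR adjusted p = 0.0854, 0.0764, 0.134, 0.123 and 0.148) or HCCC9810 library 12 (0.0516), with library totals (0.0525) and with RPKM in limma (0.124 and 0.0901 at pseudocounts of 1 and 0.1). MYC rose by 0.91 ± 0.18 in RBE and 0.93 ± 0.18 in HCCC9810 (edgeR adjusted p = 0.00270 and 0.00241), and NFE2L2 was called in neither (0.49 ± 0.22 and −0.19 ± 0.22).

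**Figure D4:**
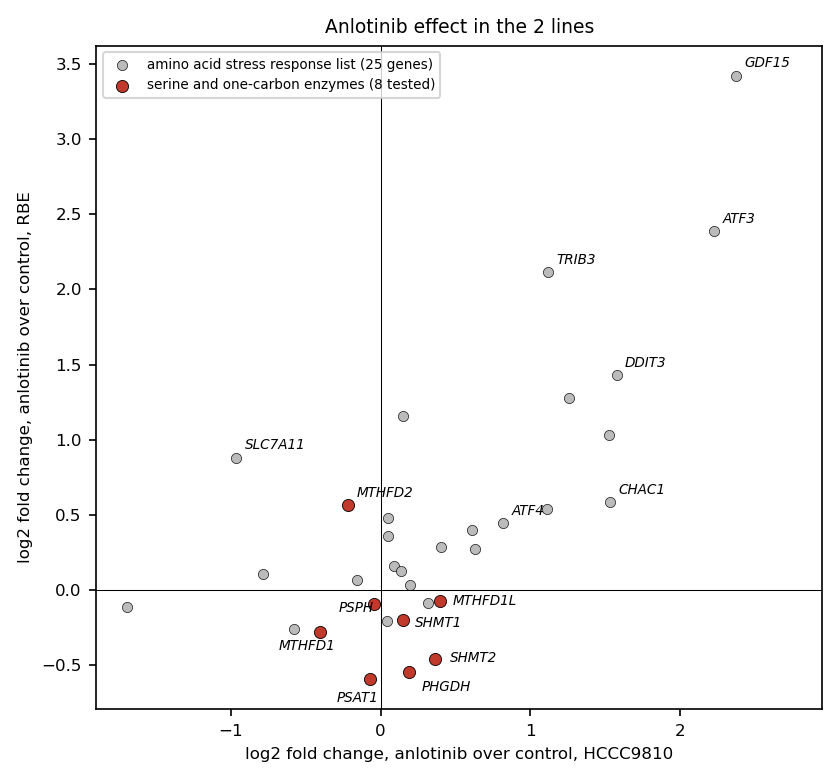
Log2 fold change of anlotinib over control in HCCC9810 (x axis) and in RBE (y axis) for 8 enzymes (red) and the 25 genes of the amino acid stress response list (grey). PHGDH and SHMT2 lie right of 0 and below 0, with RBE values of −0.55 and −0.46, while ATF3, GDF15 and TRIB3 lie above 1 on both axes.

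Across the 6 libraries of RBE, PHGDH varied with SHMT2 (Pearson r = 0.98), MTHFD1 (0.97), PSAT1 (0.95) and SHMT1 (0.93). Across the 6 libraries of HCCC9810 the same correlations were 0.55, −0.11, −0.70 and 0.89, so the order differed between the lines. Among all tested genes, those with the closest pattern over 12 libraries, with the mean of each line removed, were FOXRED1 for PHGDH (r = 0.962), STMN3 for PSAT1 (0.976), SMOX for SHMT2 (0.994), ABCB9 for SHMT1 (0.972), NCSTN for MTHFD1 (0.984), WARS for MTHFD1L (0.973) and SLC12A8 for MTHFD2 (0.928). These are descriptions over libraries that share treatment, depth and the GC axis, and carry no test. MTHFD2 had at most 8 counts in any RBE library, so its match draws on the scatter of a few counts.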

How the data were processed

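The authors deposited, per the file headers, whole-number read counts and RPKM for 58216 Ensembl genes in 12 libraries. HISAT2 and GRCh38 are named in the submitters' processing notes. Their versions, the counting program, its strand setting and its treatment of reads that fit several genes are not given in the sources used here, so overlapping genes cannot be told apart by strand. Groups followed the words of the column headers.

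The tests used edgeR 4.0.16 (R 4.3.3). The expression filter on 4 groups left 18035 genes, libraries were scaled by TMM, and a robust quasi-likelihood model of 4 group means was fitted to 12 libraries. Two-sided F tests were adjusted by Benjamini-Hochberg over all tested genes, with calls made under 0.05. SE is the unshrunk log2 fold change over the square root of F, and intervals are 95%. Alternatives were DESeq2 1.42.0, its size factors, library totals, other filters, limma 3.58.1 on log2 of the deposited RPKM plus 1 or 0.1, each line alone, each library left out, library 6 with 7 left out, and a correction for GC content and length from GENCODE 29. The fit was also run on simulated counts with a single spread for all genes and no GC axis. These settings differ from the data, so that run does not show the error rates here. No 2 replicates of a group agreed within sampling noise (chi-square per degree of freedom 3.52 to 46.3).

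The members, lists and tests were chosen with earlier results of these data known. Beside the members, the text names ATF4, MYC and NFE2L2, called genes of each list (up to 4 per direction and line, at least 1 CPM, by size of change), and the genes most correlated with each member. Some of these genes are not reported here.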

Additional observations from a re-analysis of the deposited data

Results flagged for a closer look

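The anlotinib effect differed between the lines, by the test of the difference itself (edgeR, effect in RBE minus effect in HCCC9810, log2 scale), for 3 of the enzymes and for these genes around them. Among the enzymes these were PHGDH (−0.74), PSAT1 (−0.52) and SHMT2 (−0.83). Among folate genes they were MTFMT (−0.59) and FPGS (−0.55), called higher in HCCC9810, and MTR (0.63), called lower there. SPTLC3, a subunit of serine palmitoyltransferase, differed by 1.29 and was called lower in HCCC9810. CBS, which condenses serine with homocysteine, differed by −1.36 and was called higher in HCCC9810. MAT2A, which makes the methyl donor S-adenosylmethionine, differed by 0.58 and was called lower in both lines. IMPDH1 differed by −0.71 and was called lower in RBE. In the stress response list GDF15 differed by 1.04 and TRIB3 by 0.99, both called higher in both lines, and SLC7A11, called higher in RBE and lower in HCCC9810, by 1.85. With 1 library left out, the difference lost its call in 8 of 12 fits for MTFMT, 9 for FPGS, 7 each for MTR and IMPDH1 and 2 each for MAT2A and GDF15, with adjusted p of at most 0.158. With 3 libraries per group, no group was large enough for a check of single outlying libraries.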

How the results depend on the processing

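No paired analysis was possible because the groups compared share no replicate numbers. All genes called numbered 4303 in HCCC9810 (2407 to 5043 with 1 library left out), 3189 in RBE (1868 to 3750, and 4992 with the GC and length correction) and 2990 for the difference (1473 to 4865, 6413 without libraries 6 and 7, and 4552 with the correction). Enzymes called numbered 2 in HCCC9810 (0 to 3), 3 in RBE (1 to 3, and 4 without libraries 6 and 7 and with the correction) and 3 for the difference (1 to 4, 5 without libraries 6 and 7, and 5 with the correction). In the untreated lines the 5 enzymes called higher in RBE kept their calls in each alternative run of that comparison. MTHFD2 is left out of this count because it entered the test only through HCCC9810. Library totals moved the split for the difference to 2080 higher and 1085 lower, against 1608 and 1382, and its median over all genes to 0.22, against 0.09. Directions turned for uncalled enzymes. PSPH for the difference became 0.0771 with library totals, 0.0911 and 0.0960 with RPKM in limma and 0.119 with the correction, and MTHFD1 became −0.0314 with the correction. With 1 library left out, PSPH ran from −0.112 to 0.0555 in HCCC9810, from −0.222 to 0.0606 in RBE, from −0.190 to 0.0936 for the difference and from −0.0638 to 0.219 between untreated lines, and MTHFD1L in RBE from −0.206 to 0.0263. The cause was not tested, beyond there being fewer libraries where 1 was left out. Low counts limit MTHFD2 in RBE, at 18 over 3 anlotinib libraries and 10 over 3 control libraries. They limit ALDH1L2 in both lines, at 46 (anlotinib) and 18 (control) in RBE and 5 and 14 in HCCC9810.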

Other observations

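PRPS2, which makes the phosphoribosyl pyrophosphate that purine synthesis starts from, had a pattern between lines like that of MTHFD2, noticed after its values were seen. It had 7 counts over the 3 RBE control libraries, against 2750 over the 3 HCCC9810 control libraries. It entered the test only through HCCC9810, so no test of this difference is given. With anlotinib it had 6 counts over 3 RBE libraries and 2042 over 3 HCCC9810 libraries. In the methionine cycle and transsulfuration list, 3 of 10 tested genes rose and 1 fell in HCCC9810, and 1 fell in RBE, where 23.9% of all tested genes were called in HCCC9810 and 17.7% in RBE. MAT2A averaged 442 ± 36 CPM in HCCC9810 anlotinib and 899 ± 76 CPM in HCCC9810 control (log2 fold change −1.03 ± 0.10), and 215 ± 7.4 CPM in RBE anlotinib and 293 ± 18 CPM in RBE control (−0.44 ± 0.10). Of its exon bases, 12.4% are shared with another gene. CBS averaged 8.95 ± 0.52 CPM in HCCC9810 anlotinib and 3.46 ± 0.86 CPM in HCCC9810 control (1.38 ± 0.18).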
